A study of Mus musculus with 6 samples.

Results

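The oligodendrocyte lineage genes described here are *Olig1*, *Olig2*, *Cspg4*, *Gpr17*, *Cnp*, *Mbp*, *Mag*, and *Mog*, a hand-chosen series of 8 genes that runs from the progenitor stage to the myelin stage. They are 8 of 22911 genes that could be named on the array, and the RefSeq accessions of the array design tie 11 of 32994 named probes to them. RNA expression was compared between 3 samples of WT cells and 3 samples of IG27 cells, each hybridized to 1 single-color Agilent mouse array. Both groups were OS3 cells, a glial line from the brain of male C3H mice (newborn C3H/HeN mice in the study's methods) that had been immortalized with SV40. WT cells carried the empty vector, and IG27 cells carried a plasmid for histone H3.3 (*H3f3a*) with the K27M mutation, in which methionine takes the place of a lysine of the histone tail. All cells were grown for 2 days in serum-containing medium before RNA extraction. The transfected cells had been taken through drug selection, from which several clones were established, and how many clones each group represents is not given in the sources used here. A difference between clones and an effect of the mutation therefore cannot be told apart. The labels do not say that the 3 samples of a group came from separate cultures, so the p-values measure only the spread between these samples, which may be technical.

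Oligodendrocytes arise from dividing progenitors that carry the proteoglycan NG2 and the receptor Pdgfra. The transcription factors Olig1 and Olig2 set up and maintain this lineage, and Sox10 acts with them throughout it. Progenitors that commit to differentiation pass through a premyelinating stage marked by the receptor Gpr17, and mature cells then make the enzymes, structural proteins, and surface glycoproteins of the myelin sheath. Diffuse midline gliomas with a mutant histone H3 are known to resemble cells of this lineage.

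Values are log2 of the processed signal minus the 75th percentile of the array, called normalized log2 values here, and a fold change is IG27 over WT. Because each probe binds its target with its own efficiency, values are comparable between samples for 1 probe but not between probes. A gene was called when its adjusted p (limma, Benjamini-Hochberg over all 14897 genes tested) was under 0.05. A probe is well above background where the scanning software flagged it so, and a gene was tested if a probe passed this flag on all flagged arrays of at least 1 group. This flag and the complete scanner output are missing for IG27 replicate 2, whose values come from the deposited table. The arrays of a group correlated with r of 0.994 to 0.997 over the tested genes with a value on every array. Arrays of different groups correlated with r of 0.902 to 0.905. At this separation 70.5% of all tested genes were called, which are 30.5% called higher and 40.0% called lower in IG27 cells, so a call is not rare. The median log2 fold change of all genes was -0.07. The samples are bulk RNA, in which fewer cells of a type and less RNA per cell cannot be told apart.

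All 8 genes were tested. *Olig1*, *Olig2*, *Gpr17*, and *Mbp* were higher in IG27 cells, *Cnp* was lower, and *Cspg4*, *Mag*, and *Mog* were not called. The call of *Mbp* is that of its brightest probe: another of its probes fell by 2.30 on the log2 scale, and with the mean of its probes the gene was lower. The 5 called genes had groups that did not overlap, 4 with IG27 above WT and 1 below. Of all tested genes 75.7% had groups without overlap, 33.4% with IG27 above and 42.4% with IG27 below, and 5 of 8 is near the background of called genes. The genes of the lineage therefore did not move in 1 direction, and their median log2 fold change of 0.77 is the middle of a span from -1.52 for *Cnp* to 6.88 for *Gpr17*. This median lies between the values of *Cspg4* (0.61, dim and not called) and of the brightest *Mbp* probe (0.92). It would be lower with the mean of the *Mbp* probes.

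**Figure D1:**
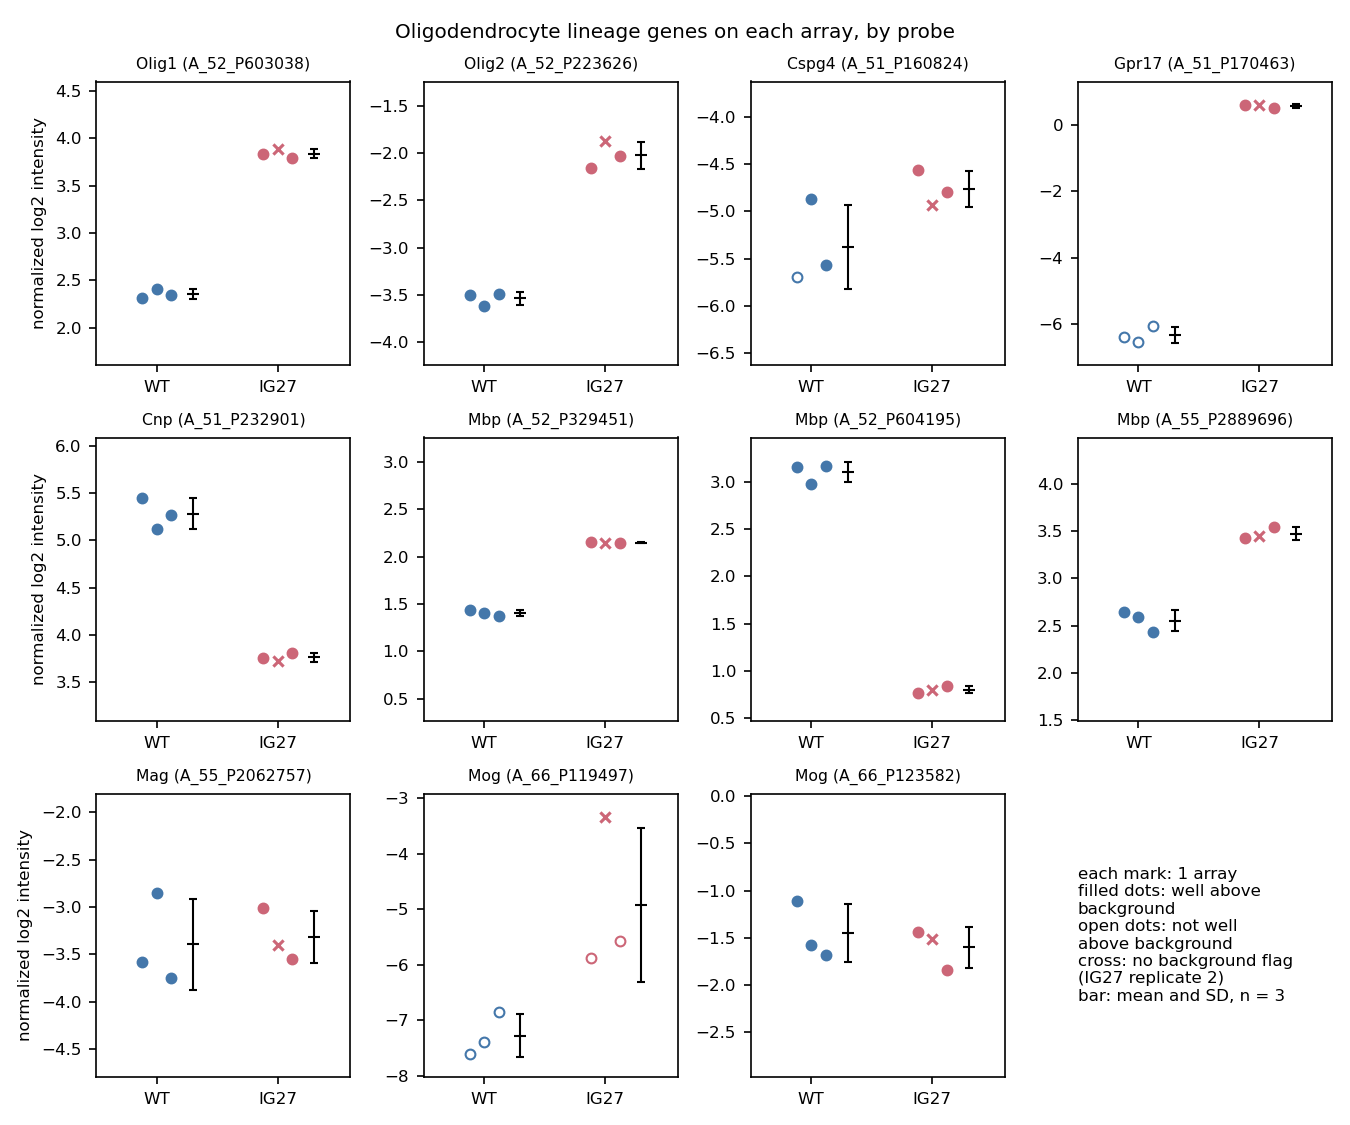
Normalized log2 intensity (y axis) of each of the 11 probes in 3 WT and 3 IG27 arrays (x axis), with 1 mark per array and the group mean and SD beside them. Each panel has its own y range of at least 3 log2 units, open dots were not well above background, and crosses mark IG27 replicate 2, which has no flag. The groups are apart for *Olig1*, *Olig2*, *Gpr17*, *Cnp*, and the 3 *Mbp* probes, of which 1 runs opposite to the others, and overlap for *Cspg4*, *Mag*, and the brighter *Mog* probe.

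*Olig1* and *Olig2* encode basic helix-loop-helix transcription factors, of which Olig2 is required for oligodendrocyte progenitors to form and Olig1 for their maturation. The *Olig1* probe (A_52_P603038) had normalized log2 values of 2.31, 2.41, and 2.34 in WT cells and 3.83, 3.89, and 3.79 in IG27 cells. All IG27 samples lay above all WT samples, with little spread within either group. *Olig1* rose by a log2 fold change of 1.48 (SE 0.05), or 2.80-fold with a 95% confidence interval of 2.56 to 3.06 (limma, adjusted p = 2.03e-06). The *Olig2* probe (A_52_P223626) gave -3.50, -3.61, and -3.49 in WT cells and -2.16, -1.87, and -2.03 in IG27 cells, again without overlap. *Olig2* rose by a log2 fold change of 1.51 (SE 0.09), or 2.85-fold with an interval of 2.47 to 3.30 (limma, adjusted p = 1.38e-05). Under normexp background correction of the 5 arrays with complete scanner output its log2 fold change was 0.86. The intervals of the genes cover each other's estimates, and no test of the difference between them was made.

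*Olig1* and *Olig2* are neighbors on chromosome 16, with no tested gene between them. The chromosome had a median log2 fold change of 0.09, and relative to it *Olig1* was at 1.39 and *Olig2* at 1.42. Of the 3 nearest tested genes on each side, *Cfap298* (0.41), *Paxbp1* (0.71), *Ifnar2* (0.31), and *A930006K02Rik* (0.50) were called higher in IG27 cells. *Synj1* (-0.19) was called lower, and *Ifnar1* (0.17) was not called (limma, adjusted p = 0.0682). All 6 neighbors thus had log2 fold changes below those of the *Olig* genes. The other tested genes whose centered values over the 6 arrays lay closest to *Olig1* were *Bhlhe40* and *Usp44*, with root mean square differences of 0.03 and 0.04 log2 units. For *Olig2* they were *Ppp4r4* and *Vwf*, both at 0.05, and *Olig1* and *Olig2* were 0.10 apart. Because the arrays of a group differ little, such closeness mostly means a similar fold change.

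The sequence before the start of *Olig2* is shown beside that of *Cnp*, because these genes moved in opposite directions by nearly the same log2 amount. Each line holds the 250 bases upstream of the RefSeq start, read 5′ to 3′ on the gene's own + strand in GRCm38.p6, at chr16:91225300-91225549 for *Olig2* and chr11:100574689-100574938 for *Cnp*. Capitals mark matches, on either strand, to the E-box CANNTG, which basic helix-loop-helix factors such as Olig2 bind, and to ACAAT, a core recognized by Sox factors.
Olig2: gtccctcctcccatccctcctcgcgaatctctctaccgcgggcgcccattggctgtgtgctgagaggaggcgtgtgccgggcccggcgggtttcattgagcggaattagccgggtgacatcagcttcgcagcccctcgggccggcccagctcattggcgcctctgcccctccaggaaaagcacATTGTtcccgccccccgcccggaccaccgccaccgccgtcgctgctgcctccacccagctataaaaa
Cnp: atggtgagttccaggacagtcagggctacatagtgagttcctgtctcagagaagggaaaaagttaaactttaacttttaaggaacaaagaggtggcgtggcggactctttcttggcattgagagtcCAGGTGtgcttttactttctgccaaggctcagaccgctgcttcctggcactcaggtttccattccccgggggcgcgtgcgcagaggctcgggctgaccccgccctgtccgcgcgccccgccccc
The *Olig2* window held 1 ACAAT match, on the opposite strand, and 0 E-boxes. The *Cnp* window held 1 E-box and 0 ACAAT matches. Among 32851 windows of the same length in the RefSeq table, 66.2% held an E-box and 27.7% an ACAAT, so neither match is unusual. The *Olig2* window had 22 CG dinucleotides and the *Cnp* window 13, against a median of 6 over all windows, and 14.8% of windows had at least as many as *Olig2*. Such matches are descriptions of letters and not binding sites, and 5 of the 8 genes have a window in the table.

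*Cspg4* encodes NG2, the surface proteoglycan by which oligodendrocyte progenitors are usually recognized. Its probe (A_51_P160824) was dim in both groups, with a processed signal of 20.7, 35.7, and 20.9 units in WT cells and 46.4, 37.1, and 36.0 units in IG27 cells. WT replicate 1 was not well above background, and the gene entered the test through the IG27 group. On the normalized log2 scale the values were -5.69, -4.87, and -5.56 in WT cells and -4.56, -4.93, and -4.79 in IG27 cells. WT replicate 2 lay among the IG27 samples, so the groups overlapped. The log2 fold change of 0.61 (SE 0.23, 95% interval 0.05 to 1.18) did not pass (limma, adjusted p = 0.0534). Without WT replicate 2 it was 0.87 (limma, adjusted p = 0.0024) and passed. It also passed under normexp background correction of the 5 arrays with complete scanner output, at 0.24 (limma, adjusted p = 0.0485). When the slide row entered as a block, so that IG27 cells were set against WT replicate 2, it was 0.10 (limma, adjusted p = 0.609). The gene lies on chromosome 9, whose median log2 fold change was -0.64.

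The change of *Gpr17* was by far the largest of the 8. *Gpr17* encodes a receptor that is switched on in committed precursors, holds them back from maturing, and must be shut off before they make myelin. Its probe (A_51_P170463) had a processed signal of 12.8, 11.2, and 14.8 units in WT cells, and of 1648, 1702, and 1402 units in IG27 cells. The gene was not well above background on any WT array and bright on all IG27 arrays, and it entered the test through the IG27 group. The normalized log2 values were -6.39, -6.53, and -6.06 in WT cells and 0.59, 0.59, and 0.49 in IG27 cells. Because the WT level is known only as a bound, *Gpr17* was at least 80.1-fold higher in IG27 cells, and this bound was not itself tested. The difference of the group means, 6.88 on the log2 scale (SE 0.12, limma, adjusted p = 1.68e-07), rests on WT values near background. Under normexp background correction, which was run on the 5 arrays with complete scanner output and adds an offset of 50 units, it was 4.32.

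The 6 tested genes nearest to *Gpr17* had log2 fold changes between -0.14 and 0.99. The 3 nearest tested genes on one side, *Wdr33* (0.86), *Sft2d3* (0.43), and *Lims2* (0.68), were called higher in IG27 cells, as was *Iws1* (0.56) on the other. *Proc* had a log2 fold change of 0.99 (limma, adjusted p = 0.122) and *Map3k2* of -0.14 (limma, adjusted p = 0.196), and neither was called. The median log2 fold change of the whole chromosome was -0.003. The genes nearest to *Gpr17* over the 6 arrays were *Alx4* and *Cd24a*, at root mean square differences of 0.13 and 0.14 log2 units.

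**Figure D2:**
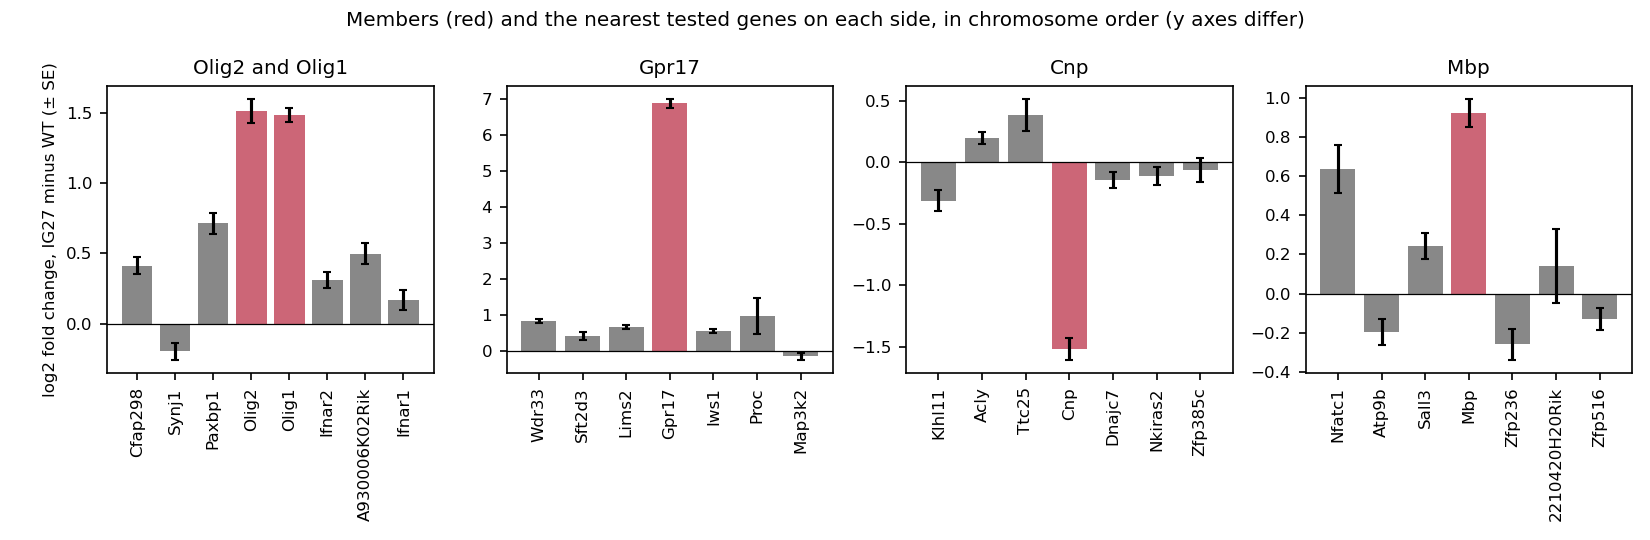
Log2 fold change, IG27 minus WT (y axis, bars with SE), of the called lineage genes (red) and of the 3 nearest tested genes on each side (gray) in chromosome order (x axis), with a y range of its own for each locus. *Gpr17* at 6.88 and *Cnp* at -1.52 exceed all of their neighbors in size, and *Olig2* and *Olig1* lie side by side at 1.51 and 1.48.

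Among the genes of the myelin sheath, *Cnp* fell. *Cnp* encodes a cyclic nucleotide phosphodiesterase of the noncompact myelin that appears early in differentiation and is also used as a marker of immature oligodendrocytes. Its probe (A_51_P232901) gave normalized log2 values of 5.45, 5.12, and 5.27 in WT cells and 3.75, 3.72, and 3.81 in IG27 cells. All WT samples were above all IG27 samples, and the WT samples were spread more widely. The log2 fold change was -1.52 (SE 0.09), or 2.86-fold lower in IG27 cells (limma, adjusted p = 1.67e-05). Of its neighbors, *Klhl11* (-0.31) was called lower and *Acly* (0.20) and *Ttc25* (0.39) higher. *Dnajc7*, *Nkiras2*, and *Zfp385c* on the other side were not called, with log2 fold changes of -0.15, -0.11, and -0.06. The closest patterns over the 6 arrays were those of *Liph* (0.02 log2 units) and *Rnd3* (0.04).

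*Mbp* encodes myelin basic protein, which compacts the sheath, and the same locus also yields golli transcripts that are made outside myelin as well. Its 3 probes did not move together. The probe used for the gene (A_55_P2889696) gave 2.64, 2.59, and 2.43 in WT cells and 3.43, 3.45, and 3.55 in IG27 cells. The log2 fold change was 0.92 (SE 0.07, limma, adjusted p = 6.11e-05), or 1.89-fold. A further probe assigned to the same RefSeq transcript (A_52_P329451) gave 1.44, 1.41, and 1.37 in WT cells and 2.15, 2.14, and 2.15 in IG27 cells. Here the log2 fold change was 0.74 (SE 0.05, limma, adjusted p = 2.28e-05). The third probe (A_52_P604195), assigned to another RefSeq transcript of the gene, gave 3.16, 2.98, and 3.17 in WT cells and 0.77, 0.80, and 0.84 in IG27 cells. It fell by 2.30 on the log2 scale (SE 0.07, limma, adjusted p = 1.10e-06). None of the 3 probes had overlapping groups, and the direction of *Mbp* as a gene depends on the probe. With the mean of its probes the gene had a log2 fold change of -0.21 (limma, adjusted p = 0.00883). Probes called in both directions were found in 184 of the 5486 genes with more than 1 tested probe, or 3.35%. Which exons each probe reads was not examined here.

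*Mag* and *Mog* encode surface proteins of the finished sheath, with *Mag* on its innermost layer facing the axon and *Mog* on its outermost. *Mag* (A_55_P2062757) gave -3.58, -2.85, and -3.75 in WT cells and -3.01, -3.40, and -3.55 in IG27 cells. WT replicate 2 was the highest of the 6 samples and WT replicate 3 the lowest, so the WT group enclosed the IG27 group. The log2 fold change was 0.07 (SE 0.26, limma, adjusted p = 0.816), and its 95% interval of -0.57 to 0.72 leaves room for a change of either sign. *Mog* was read by a brighter probe (A_66_P123582) at -1.11, -1.57, and -1.68 in WT cells and -1.44, -1.51, and -1.84 in IG27 cells, which overlapped. Its log2 fold change was -0.15 (SE 0.18, limma, adjusted p = 0.493). The other *Mog* probe (A_66_P119497) was not well above background on any of the 5 arrays with a flag, and its processed signal was 5.53, 6.26, and 8.61 units in WT cells and 18.7, 112, and 21.1 units in IG27 cells. IG27 replicate 2 stood apart there, and no fold change is given for this probe.

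**Figure D3:**
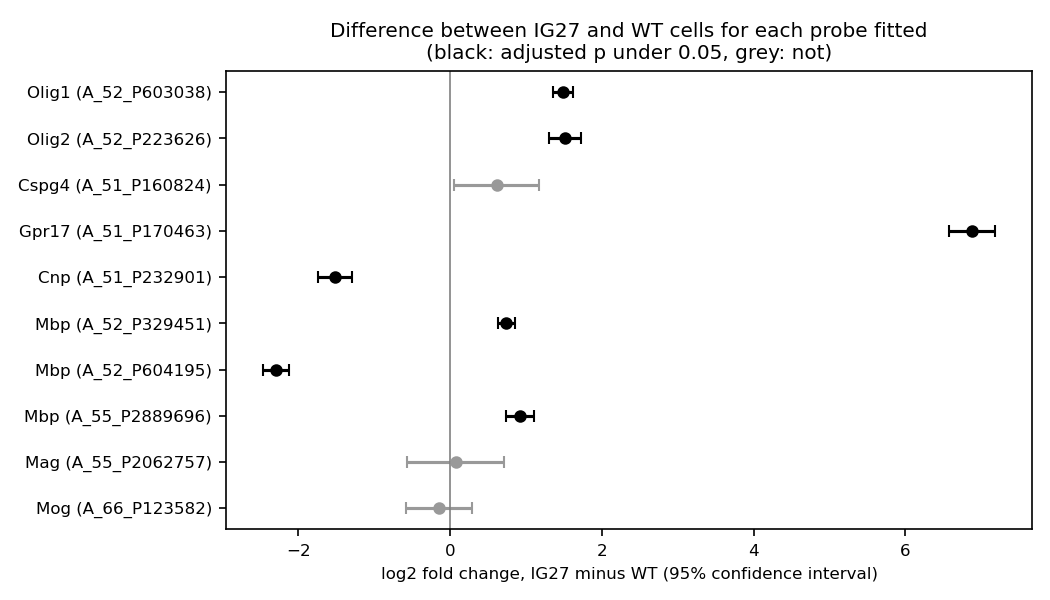
Log2 fold change, IG27 minus WT, with its 95% confidence interval (x axis) for each of the 10 fitted probes of the lineage genes (y axis). Black probes had an adjusted p under 0.05 and gray probes did not. *Gpr17* lies farthest from 0, and the *Mbp* probes fall on both sides of it.

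The label of the samples, glial cell, was set against defining markers. *Sox10* was well above background in all samples with a flag and was slightly lower in IG27 cells, at 5.40 against 5.77 in WT cells (log2 fold change -0.37, limma, adjusted p = 7.29e-04). *Pdgfra*, the growth factor receptor of progenitors, gave -1.73, -1.76, and -1.76 in WT cells and 0.62, 0.60, and 0.61 in IG27 cells. It rose by a log2 fold change of 2.36 (SE 0.04, limma, adjusted p = 1.60e-07) without overlap of the groups. *Mobp*, a structural myelin protein, and *Myrf*, the transcription factor that switches on myelin genes, were not well above background in either group. The astrocyte filament gene *Gfap* was well above background, and its probes moved in opposite directions, with log2 fold changes of -1.07 and 0.19.

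Other genes of the lineage, none of them among the 8 except *Gpr17* in the last list, were taken from hand-written lists and counted in the same way. Of 15 tested progenitor genes, 2 rose and 10 fell in IG27 cells, and 3 were not called, with a median log2 fold change of -0.74. The tetraspan membrane protein gene *Lhfpl3* (log2 fold change -5.76), the proteoglycan gene *Bcan* (-2.05), and the phosphatase gene *Ptprz1* (-1.78) fell and were well above background in both groups. The proteoglycan gene *Ncan* was at least 30.0-fold lower and the matrix glycoprotein gene *Tnr* at least 2.66-fold lower in IG27 cells, where neither was well above background. The genes called higher were *Pdgfra* and *Cacng4* (0.39), of which *Cacng4* was not called under quantile normalization. Of 10 tested genes of committed and premyelinating cells, 3 were higher, 4 were lower, and 3 were not called. *Bmp4*, a ligand that favors astrocytes over oligodendrocytes, was at least 15.3-fold higher in IG27 cells. The kinase *Fyn* (1.40) and the Wnt effector *Tcf7l2* (0.79) were also called higher. *Tns3* (-0.80 by its brightest probe, -0.09 by another), *Cemip2* (-0.52), and *Bcas1* (-0.37) were called lower. The median of this list was -0.05 and turned to 0.12 under quantile normalization.

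Of 23 tested genes of myelin and mature oligodendrocytes, 10 were higher and 8 lower, and 5 were not called, with a median of 0.19. The transferrin gene *Trf* (5.82) and the connexin gene *Gjc3* (4.65) rose. *Ugt8a*, which makes the galactolipids of myelin and was not well above background in WT cells, was at least 28.5-fold higher in IG27 cells. *Fa2h*, *Ppp1r14a*, and *Klk6* were also not well above background on any WT array, with bounds of at least 2.02-, 4.09-, and 3.43-fold. *Septin4* was well above background on only 1 WT array. These 5 of the genes called higher entered the test through the IG27 group only, where they are high. They are part of the 10 and push the median of 0.19 upward, so neither shows a lean of the list. The largest falls were those of *Mal* (-3.18) and *Cldn11* (-3.04), which encode membrane proteins of compact myelin and of its tight junctions, and of *Gal3st1* (-1.69), which sulfates the lipid that *Ugt8a* makes. Genes of the same myelin lipid pathway therefore lay on both sides of 0, as *Cnp* and 2 of the *Mbp* probes did.

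Of 14 tested regulators that promote the lineage, 4 were higher, 7 lower, and 3 not called. The chromatin remodeler *Chd7* (4.45), *Hdac2* (1.03), and *Tcf7l2* rose most, and the hedgehog pathway genes *Smo* (-1.35) and *Gli1* (-1.07) and the transcription factor *Zeb2* (-0.64) fell most. The median was -0.08 and turned to 0.08 under quantile normalization. Of 15 tested regulators that restrain differentiation, 8 were higher, 6 lower, and 1 was not called, with a median of 0.54. Besides *Gpr17*, the Notch ligand *Jag1* was at least 23.9-fold higher in IG27 cells. The Notch target *Hes5* had a log2 fold change of 5.40 and was well above background on 1 of 3 WT arrays, *Hes1* of 3.48, and the receptor *Notch1* of 1.84. *Bmp4*, given above, *Egr1* (1.66), and *Sox5* (0.54) were also called higher. *Id4* (-3.72), *Fgfr3* (-2.31), and *Lingo1* (-1.99), which also restrain differentiation, fell. The counts of these lists are to be read against the background of 30.5% higher and 40.0% lower. A gene that entered the test through 1 group only is one that is high there. Among the restraining regulators *Gpr17*, *Jag1*, *Bmp4*, and *Hes5* entered through the IG27 group only. They are part of the 8 called higher and push the median of 0.54 upward, so neither shows a lean of the list. *Bmp4* entered the committed list in the same way, and *Ncan* and *Tnr* entered the progenitor list through the WT group only.

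**Figure D4:**
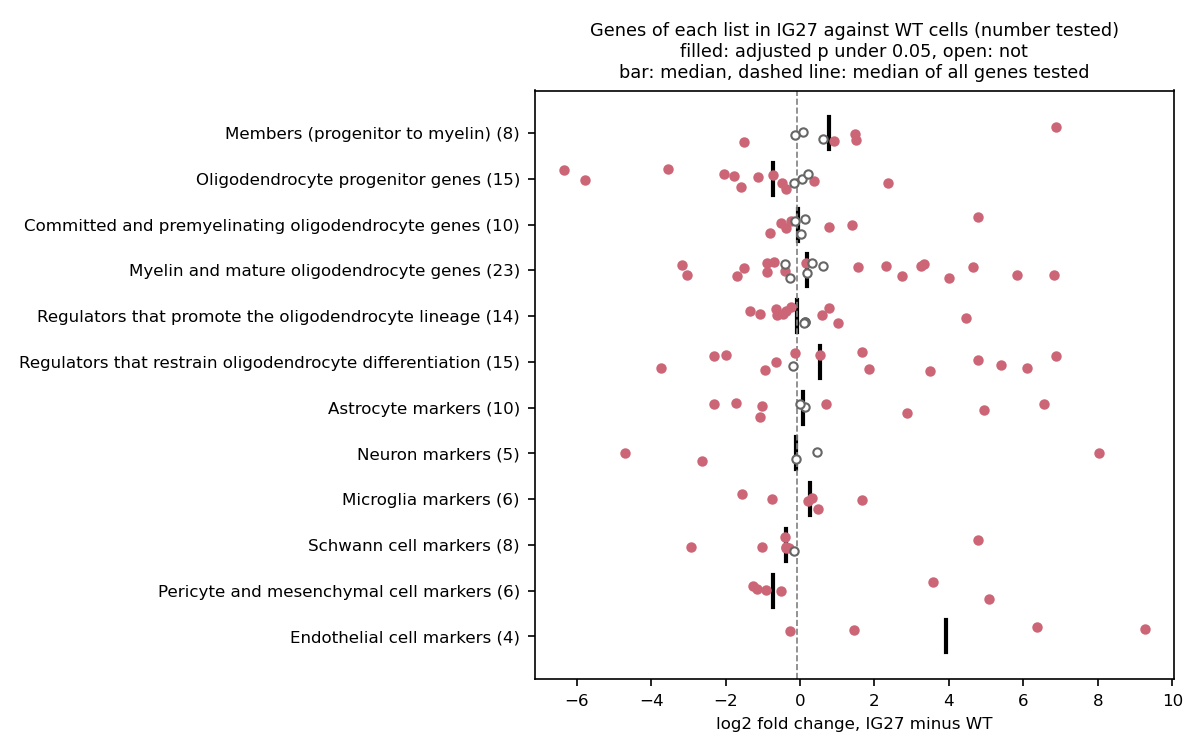
Log2 fold change, IG27 minus WT (x axis), of every tested gene of each list (y axis, number tested in parentheses), with filled dots for called genes, open dots for the others, a bar at the list median, and a dashed line at the median of all tested genes, -0.07. The lineage genes have a median of 0.77, with *Mbp* taken by its brightest probe, and the progenitor list one of -0.74. Most lists hold genes far to both sides.

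Markers of other cell types changed beside the lineage genes, and their part in these results was not tested. Of 10 tested astrocyte markers 4 were higher and 4 lower, and the summed linear level of the list ran from 140 to 148 in WT cells and from 78.1 to 84.3 in IG27 cells. In WT cells this sum is dominated by the brightest probes, those of *Gfap* and *Fgfr3*. The sums of the lists below likewise follow their brightest probes. *Fgfr3* (-2.31), *Aldh1l1* (-1.72), *Gfap* (-1.07 by its brightest probe, 0.19 by another), and *Slc1a2* (-1.03) fell. *S100b* (4.93) rose, the glutamate transporter *Slc1a3* was at least 20.6-fold higher in IG27 cells, and *Gja1* and *Gjb6* did not pass the background filter. Of 8 tested Schwann cell markers 1 was higher, *Egr2* (4.78), and 6 were lower, among them *Ngfr* (-2.92). This list shares *Sox10* with the lineage, and its summed level ran from 277 to 286 in WT cells and from 179 to 189 in IG27 cells. Of 6 tested pericyte and mesenchymal markers 2 were higher and 4 lower, with summed levels of 197 to 202 in WT cells and 102 to 106 in IG27 cells. *Cspg4* is also made by pericytes. Of the markers on this list *Tagln* (-1.26), *Pdgfrb* (-1.16), *Col1a1* (-0.92), and *Acta2* (-0.51) fell, though another *Acta2* probe rose by 1.12. *Anpep* (5.08) rose, and *Dcn* was at least 3.32-fold higher in IG27 cells. *Rgs5*, *Kcnj8*, *Abcc9*, *Col1a2*, *Lum*, and *Vtn* did not pass the filter.

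Of 5 tested neuron markers 1 was higher and 2 were lower, with summed levels of 17.6 to 20.0 in WT cells and 9.97 to 11.1 in IG27 cells, and *Rbfox3*, *Syt1*, *Dcx*, *Gad1*, and *Nefl* did not pass the filter. Of 6 tested microglia markers 4 were higher and 2 lower, with summed levels of 15.3 to 16.3 in WT cells and 14.9 to 15.3 in IG27 cells. *P2ry12* (0.49), *Cd68* (0.31), *Itgam* (0.20), *Tmem119* (-0.76), and *Csf1r* (-1.57) were well above background in both groups and were called. Another *Csf1r* probe had a log2 fold change of -0.13. *Cx3cr1*, *Ptprc*, *Trem2*, and *C1qa* did not pass the filter. Of 4 tested endothelial markers 3 were higher and 1 was lower, with summed levels of 0.258 to 0.274 in WT cells and 3.55 to 3.58 in IG27 cells. *Kdr*, a receptor for vascular endothelial growth factor, was at least 135-fold higher in IG27 cells, while *Cdh5*, *Cldn5*, *Tie1*, and *Tek* did not pass the filter. *Olig2* had a pattern close to that of the endothelial marker *Vwf*, as given above, without a test. This mostly reflects similar log2 fold changes, 1.51 for *Olig2* and 1.46 for *Vwf*.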

How the data were processed

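Total RNA of 3 WT and 3 IG27 samples was labeled with Cy3 and hybridized to 6 arrays of 1 slide. The authors scanned the slide with Agilent Feature Extraction (version 10.7.3.1 in the file headers, 9.1 in the submitters' processing notes), and the deposited processed signal is a linear intensity. For IG27 replicate 2 the output breaks off after 285 of 62976 spots, so this array was read from the deposited value table, which equaled the output for 255 of 255 single-spot probes. In that table the columns labeled WT replicate 2 and WT replicate 3 are exchanged with respect to the scanner output, whose labels were followed.

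Control spots and outlier spots were left out, and log2 of the signal minus each array's 75th percentile was used. Probes were named through RefSeq accessions, which matched a name for 29339 of 29638 probes with the prefix NM. A gene was tested if a probe was well above background on all flagged arrays of a group, and its brightest such probe stood for it. Groups came from the sample labels. The comparison used limma 3.58.1 (R 4.3.3), two-sided, by eBayes after lmFit with Benjamini-Hochberg adjustment and was tested on simulated data. Where a probe was not well above background on any flagged array of a group, the bound was taken from the lowest signal well above background on each array, and IG27 replicate 2, which has no flag, took the higher of its group's limits or its own value if higher.

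The genes, lists, and tests were chosen with earlier results of these data known. The text names all 8 genes with every probe, the largest called rises and falls of each lineage list (up to 3 each), defining markers, and the 2 nearest patterns of each called gene. Chromosome neighbors, the promoter windows, and markers named from the lists of other cell types were chosen after values were seen. So were *Bcan*, *Ptprz1*, *Hes1*, *Notch1*, *Egr1*, *Sox5*, *Fa2h*, *Ppp1r14a*, *Klk6*, and *Septin4*. Lineage genes on the lists with no probe past the filter were *Nkx2-2*, *Neu4*, *Pcdh15*, *Tmem100*, *Enpp6*, *Nkx6-2*, *Mobp*, *Myrf*, *Hapln2*, *Car2*, *Tmem125*, *Nipal4*, *Gpr37*, *Nkx6-1*, *Myt1*, *Shh*, *Bmp2*, and *Ednrb*. Some genes that this rule would name are not reported here. The number of arrays limits the precision. Alternatives were quantile normalization, normexp correction, other filters, the use of outlier spots, averaging of probes, a trended eBayes, a block by replicate number or by slide row, and the omission of each array.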

Additional observations from a re-analysis of the deposited data

How the results depend on the processing

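*Olig1*, *Olig2*, *Gpr17*, and *Cnp* kept their direction and their call under every alternative that could be run for them, with log2 fold changes of 1.39 to 1.63, 0.86 to 1.59, 4.32 to 7.09, and -1.60 to -1.36. *Gpr17* and *Cspg4* are not tested where probes must be well above background on all flagged arrays. With probes averaged per gene, *Mbp* reversed to -0.21 and 2 of the 8 genes were called lower, since A_52_P604195 enters the mean. *Mag*, which was not called, reversed to -0.13 under quantile normalization, to -0.47 with the slide row as a block, to -0.02 without WT replicate 1, to -0.10 without WT replicate 3, and to -0.08 without IG27 replicate 1. *Mog* reversed to 0.025 without WT replicate 1. *Cspg4* was called under normexp correction of the 5 arrays with complete scanner output at 0.24 (limma, adjusted p = 0.0485) and without WT replicate 2 at 0.87. For these changes the cause was not tested.

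Leaving out 1 array at a time gave *Olig1* 1.46 to 1.51, *Olig2* 1.44 to 1.58, *Cspg4* 0.45 to 0.87, *Gpr17* 6.78 to 7.02, *Cnp* -1.60 to -1.43, *Mbp* 0.86 to 0.96, *Mag* -0.10 to 0.35, and *Mog* -0.26 to 0.03. Under quantile normalization the progenitor list had 1 gene called higher, and list medians moved to 0.12 (committed cells), 0.079 (promoting regulators), 0.67 (restraining regulators), -0.026 (astrocyte), -0.27 (Schwann cell), and -0.62 (pericyte and mesenchymal). With dim probes kept, all genes had a median of 0.12.

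Replicate numbers did not pair the samples: deviations of same-numbered samples correlated at 0.012, 0.040, and 0.076, and 1 of 3 WT samples correlated best with its own number. A replicate block gave 10308 called genes and changed none of the 8 calls (*Olig1* 1.48, *Olig2* 1.51, *Gpr17* 6.88, *Cnp* -1.52, *Mbp* 0.92). With the slide row as a block, IG27 cells were set against WT replicate 2 alone, since WT replicates 1 and 3 lay in the other row. The group and the row are therefore largely confounded. The log2 fold changes were then 1.43 for *Olig1*, 1.59 for *Olig2*, 7.09 for *Gpr17*, -1.36 for *Cnp*, and 0.89 for *Mbp*. *Cspg4*, WT *Gpr17*, and the other *Mog* probe lie near background, where small differences are not measurable on these arrays.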
